A study of Mus musculus with 6 samples.

Results

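Scavenger receptors are cell surface proteins that bind modified lipoproteins, microbial products, dying cells and aggregated proteins and, in most cases, carry them into the cell. They are grouped into classes by structure rather than by a shared ligand, so members of different classes can take up the same cargo. In the brain, microglia, the resident macrophages, carry several of them and use them in the clearance of myelin debris, lipids and amyloid. The 9 genes described here are *Msr1*, *Marco* and *Colec12* (class A, trimeric receptors with collagen-like stalks), *Scarb1* and *Cd36* (class B, receptors for lipoproteins and fatty acids that cross the membrane at both ends), *Cd68* (class D, a heavily glycosylated protein of late endosomes and lysosomes), *Olr1* (class E, a lectin-like receptor for oxidized LDL), *Scarf1* (class F, with EGF-like repeats) and *Stab2* (class H, a large receptor for hyaluronan).

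The members were all non-control probes whose transcript accession maps to 1 of these 9 symbols. This gave 14 probes out of 56605 on the array, and 9 genes out of 23462 with a named probe. All 14 probes were tested. A probe counted as above background on an array when the scanner software marked it as well above background there. On that measure 10 of the 14 probes were above background on all 6 arrays, the *Cd36* probe was above it on 3 arrays only, and 1 *Msr1* probe and both *Olr1* probes were above it on none. *Olr1* was therefore the only member gene that was not above background on any array.

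The question was whether microglia without functional Bhlhe41, a basic helix-loop-helix repressor of transcription, differ in gene expression from microglia that keep 1 intact copy. Microglia were sorted as live CD45low CD11b+ Cx3cr1+ cells, after enrichment on 40% Percoll, from brains of 3-month-old C57BL/6 mice. The B41HET samples (n = 3) came from *Bhlhe41* dTomato-Cre/+ mice and the B41KO samples (n = 3) from *Bhlhe41* dTomato-Cre/dTomato-Cre mice. The targeted allele makes dTomato and Cre in place of Bhlhe41 protein, under control of the gene's own promoter. The allele is present in the germline, so every cell that uses this promoter is affected and not microglia alone. The controls are heterozygotes that carry 1 copy of the same allele, and wild type mice were not analysed here. According to the methods each sample was a pool of 10 to 15 mice, while the labels mention 3 mice for each genotype. P-values measure the spread between these samples. All values below are quantile normalized log2 signals from single-colour arrays, and a change is the mean of B41KO minus the mean of B41HET on that scale. A probe was called when limma gave a Benjamini-Hochberg adjusted p of 0.05 or less over all 56601 probes tested and a change of at least 0.5 in size.

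All 6 arrays lay on 1 slide, the 3 B41HET arrays and B41KO replicate 1 in row 1 and the other 2 arrays of B41KO in row 2. Between 70.0% and 75.5% of the probes were above background on an array, with 0 saturated spots, and precision throughout is limited by having 3 arrays a genotype. The 2 *Bhlhe41* probes read 7.86, 7.58 and 7.40 against 7.96, 7.91 and 7.95, and 7.95, 7.87 and 7.65 against 8.56, 7.84 and 8.21, in B41HET and B41KO. Neither was lower in B41KO, and since the files do not place these probes relative to the inserted dTomato and Cre sequence, they are no check of the genotype labels, which were kept. The 12 microglia markers were above background on all 6 arrays, with *Cx3cr1*, *Tmem119* and *Itgam* the brightest.

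Bhlhe41 binds E-boxes, short DNA motifs with the letters CANNTG, and prefers the form CACGTG. The promoter table of RefSeq on GRCm38.p6 held a window for 5 of the 9 members (*Marco*, *Cd36*, *Olr1*, *Stab2* and *Cd68*), and the 250 bases before each annotated start were read. Both motifs were searched as letters, and since each is its own reverse complement 1 search covers both strands. CACGTG was found in 0 of the 5 windows and lies in 6.02% of all 32851 windows of that length. CANNTG, which includes CACGTG, was found in 2 of the 5 and lies in 66.2% of all windows. The windows that held it are printed because they belong to *Cd36*, which was above background in B41HET alone, and to *Cd68*, whose probes gave changes of opposite sign. Both lie on the minus strand, at chr5:17835897-17836146 and chr11:69666171-69666420, and capitals mark CANNTG, which starts 150 bases before the annotated start in *Cd36* and 144 bases before it in *Cd68*.
Cd36: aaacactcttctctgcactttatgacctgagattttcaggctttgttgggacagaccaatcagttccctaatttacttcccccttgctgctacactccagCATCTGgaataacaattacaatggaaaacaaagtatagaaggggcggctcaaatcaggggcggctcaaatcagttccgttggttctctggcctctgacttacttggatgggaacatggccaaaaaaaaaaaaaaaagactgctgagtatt
Cd68: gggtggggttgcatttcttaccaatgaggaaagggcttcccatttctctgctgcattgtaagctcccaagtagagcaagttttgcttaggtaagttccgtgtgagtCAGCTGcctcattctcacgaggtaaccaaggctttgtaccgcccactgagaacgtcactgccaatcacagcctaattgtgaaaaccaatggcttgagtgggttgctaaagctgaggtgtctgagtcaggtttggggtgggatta
The letters describe these windows and do not show binding. *Scarb1*, *Msr1*, *Colec12* and *Scarf1* had no window. Sites farther upstream were not read, and the *Cd22* promoter site that the paper found bound by Bhlhe41 lies beyond such a reach.

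Among the 9 scavenger receptors, *Scarb1* alone held a called probe. Its dimmer probe was 1.74-fold higher in B41KO. By the brightest probe of each gene, 0 of the 9 genes were called in either direction, against 1.44% of all genes called higher and 4.05% called lower. Of the 14 member probes 1 was called, which was higher, where 5.09% of all tested probes were called in either direction and 1.72% were called higher. At an unadjusted p under 0.05, 3 of the 14 member probes passed, the *Cd36* probe and both *Scarb1* probes, a share close to the 23% of all tested probes that did. The genotypes did not overlap in 5 of the 14 probes (3 higher and 2 lower in B41KO), and they did not overlap in 29.6% of all tested probes. Changes were above 0 in 7 member probes and below 0 in 7. The median change over the 9 genes was 0.08, with 0.01 over all genes. When each array was instead aligned to its 75th percentile, the median of all probes moved from 0.01 to 0.13 and that of the 9 genes became 0.22, with 0 genes called.

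**Figure D1:**
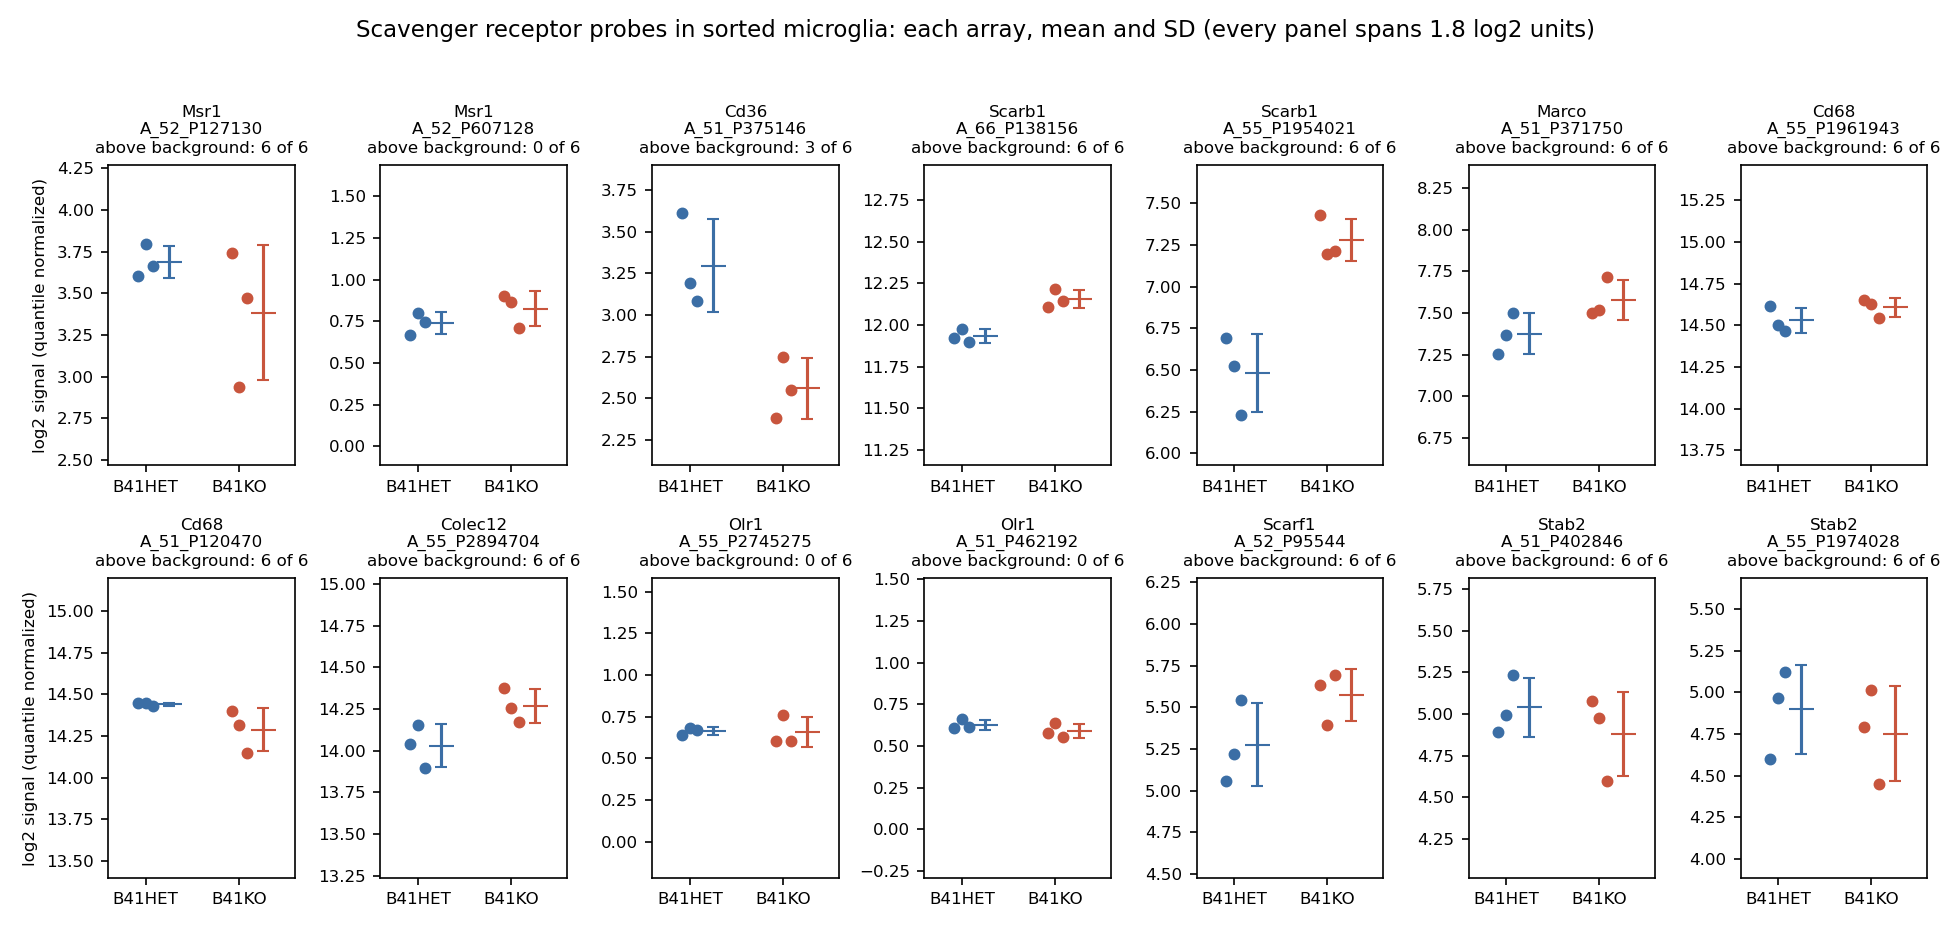
Log2 signal (quantile normalized) of each of the 14 scavenger receptor probes, 1 panel a probe, with 1 point an array and a bar for the mean and SD of the 3 B41HET (blue) and 3 B41KO (red) samples. Every panel covers the same span on its vertical axis, so distances can be compared between panels. The 3 B41KO points lie above the 3 B41HET points for both *Scarb1* probes and *Colec12*, and below them for *Cd36* and the dimmer *Cd68* probe.

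The class A receptors were not called. *Msr1*, the macrophage scavenger receptor for acetylated LDL, read 3.60, 3.80 and 3.66 in B41HET and 3.74, 2.94 and 3.47 in B41KO on the probe that was above background on all arrays. The genotypes overlapped, with B41KO replicate 2 the lowest sample and B41KO replicate 1 within the range of B41HET. The lowest signals that counted as above background lay between 2.50 and 3.24 by array, so this probe was not far above them. The change was -0.30 (95% interval -0.83 to 0.22, limma adjusted p = 0.469). It was 0.05 when the slide row entered the model, where the estimate comes from the single B41KO array in row 1. The other *Msr1* probe was not above background on any array, at 0.67 to 0.80 in B41HET and 0.71 to 0.90 in B41KO.

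*Marco*, a receptor for bacteria and particles that is best known from alveolar and marginal zone macrophages, read 7.25, 7.37 and 7.50 in B41HET and 7.50, 7.52 and 7.72 in B41KO. The lowest B41KO sample lay at the level of the highest B41HET sample. The change of 0.20 (95% interval -0.05 to 0.46) had a limma adjusted p of 0.319. *Colec12*, a collectin with a carbohydrate recognition domain, read 14.04, 14.15 and 13.90 in B41HET and 14.38, 14.26 and 14.17 in B41KO. All 3 B41KO samples were the higher ones, but the gap between the groups was 0.02, against SDs of 0.13 in B41HET and 0.10 in B41KO. The change was 0.24 (95% interval -0.01 to 0.49, limma adjusted p = 0.235), so that a change of the size used for a call lay just outside the interval.

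*Scarb1*, also known as SR-BI, takes up cholesteryl esters from HDL and lets cholesterol pass in both directions across the membrane. Its 2 probes carry the accessions of different RefSeq transcripts of the gene, and which parts of the transcripts they read is not known here. The dimmer probe read 6.69, 6.52 and 6.23 in B41HET and 7.43, 7.20 and 7.22 in B41KO. Every B41KO sample lay above every B41HET sample, and the gap of 0.51 between the nearest samples was larger than the SD of either group (0.23 and 0.13). The change was 0.80 (SE 0.14, 95% interval 0.45 to 1.15, limma adjusted p = 0.0346), and the two-sided exact permutation test gave p = 0.1, which is as low as groups of 3 can reach.

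The brighter *Scarb1* probe read 11.92, 11.98 and 11.90 in B41HET and 12.11, 12.22 and 12.15 in B41KO. It was also higher in every B41KO sample, with a gap of 0.13 between the nearest samples. Its change of 0.22 (SE 0.07, 95% interval 0.05 to 0.40, limma adjusted p = 0.129) was not called, and the interval lay below the size used for a call. The changes of the 2 probes differed by 0.58 (two-sided exact permutation test, p = 0.1, and 0.15 after Benjamini-Hochberg adjustment over the 3 genes with several probes above background). When the probes were averaged, *Scarb1* changed by 0.51 and was called (limma adjusted p = 0.0301). The call of the dimmer probe was kept in 6 of 15 alternatives. It was lost with any 1 sample left out (changes of 0.67 to 0.90, adjusted p from 0.0602 to 0.109) and when the slide row was added as a block (change 0.95, adjusted p = 0.134).

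*Cd36*, a receptor for long-chain fatty acids, oxidized LDL and thrombospondin, read 3.61, 3.19 and 3.09 in B41HET and 2.38, 2.75 and 2.55 in B41KO. The genotypes did not overlap, and the gap of 0.34 between the nearest samples was larger than the SD of either group (0.28 and 0.18). The probe was above background on all 3 B41HET arrays and on none of the B41KO arrays, so the B41KO level is only a bound. The gap and the B41KO SD rest on those background signals and are not measured sizes. For each B41KO array the higher of the probe's own signal and the lowest signal that counted as above background was taken. Against these the level in B41HET was at least 1.24-fold higher. The fitted change was -0.74 (95% interval -1.16 to -0.31), with a limma p of 0.00580 and an adjusted p of 0.0670, just short of the threshold. With only probes above background on at least 3 arrays tested, 41655 in all, the same values gave an adjusted p of 0.0306, but the probe met that filter through its 3 B41HET arrays alone, so that the filter used the difference itself and the lower p adds no support. With normexp background correction the change was -0.09. That setting adds an offset of 50 to each signal, which shrinks the log2 changes of probes as dim as this one. The value therefore does not say whether the change depends on background correction.

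**Figure D2:**
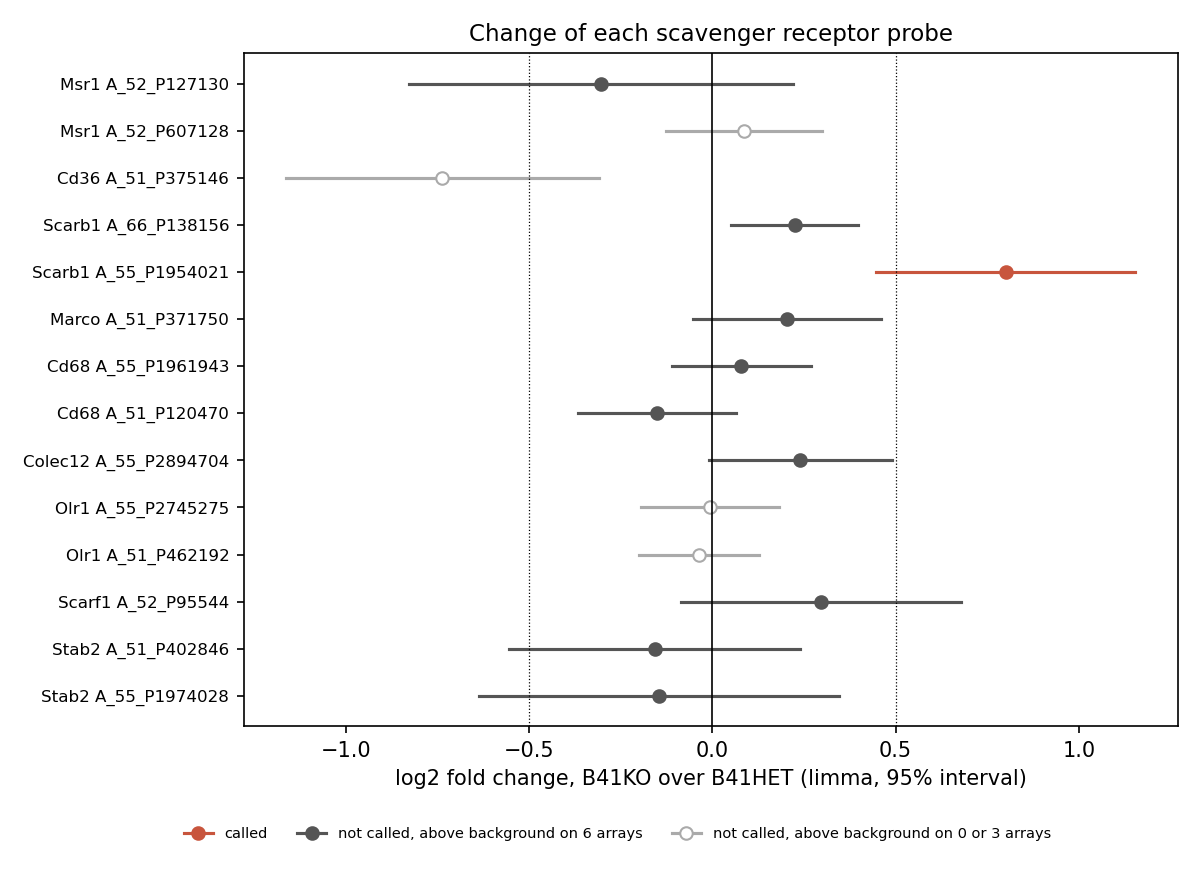
Change of each of the 14 scavenger receptor probes, as log2 fold change of B41KO over B41HET with its 95% interval from limma, and dotted lines at the size needed for a call. The dimmer *Scarb1* probe, at 0.80, is the called one (red), and *Cd36*, at -0.74, is not called and was not above background on any B41KO array, so its place against the dotted line is not measured. The signs of both *Olr1* probes, at -0.01 and -0.04 and not above background on any array, turned with the 75th percentile alignment.

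**Figure D3:**
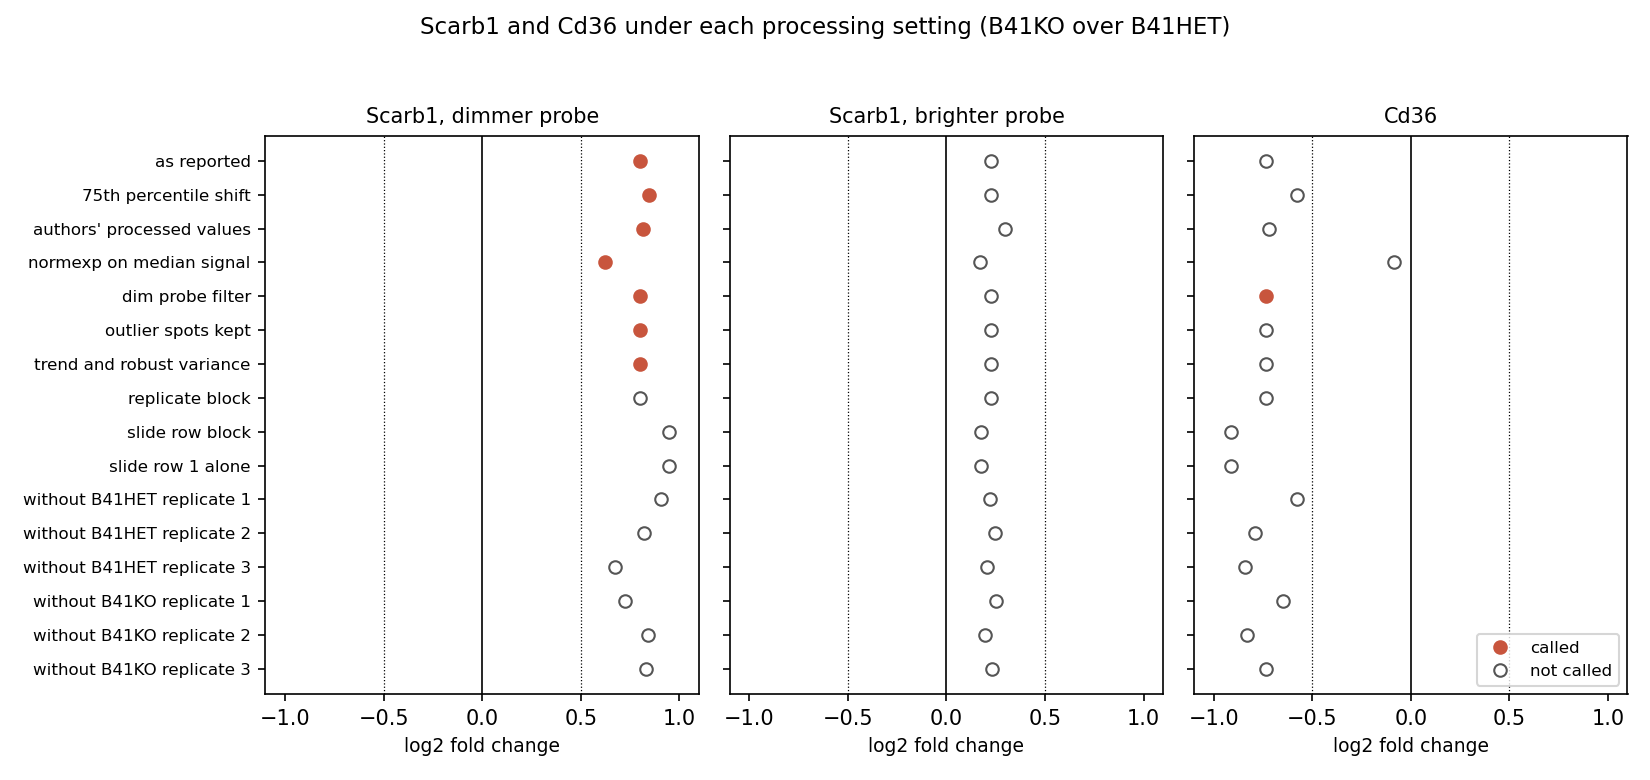
Log2 fold change of both *Scarb1* probes and of *Cd36* as reported and under 15 other settings, with filled points for calls and dotted lines at the size needed for a call. Both *Scarb1* probes stay above 0 and *Cd36* stays below 0 in all settings shown, while the calls change with the setting. Some of the settings alter only the test or the probes tested and leave the change as reported.

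*Cd68*, a marker of the endosomes and lysosomes of phagocytes, had probes whose changes went in opposite directions, and neither was called. The brighter probe read 14.62, 14.50 and 14.47 in B41HET and 14.65, 14.63 and 14.54 in B41KO. These values overlapped, and the change was 0.08 (95% interval -0.11 to 0.27, limma adjusted p = 0.613). The other *Cd68* probe read 14.45, 14.45 and 14.43 in B41HET and 14.40, 14.32 and 14.15 in B41KO. It was lower in all 3 B41KO samples by a gap of 0.03, and the change was -0.15 (95% interval -0.37 to 0.06, limma adjusted p = 0.373). The changes of these probes differed by 0.23 (two-sided exact permutation test, p = 0.1, and 0.15 after adjustment over the 3 genes), and both intervals lay within the size used for a call.

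*Olr1*, also known as LOX-1, was not well above background with either of its probes. Signals lay between 0.60 and 0.76 on the first probe and between 0.55 and 0.66 on the second over all 6 arrays. Neither genotype had a measured level, so the fitted changes of its probes are differences between background signals and are not read as folds.

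*Scarf1*, an endothelial and phagocyte receptor that binds acetylated LDL and C1q on dying cells, read 5.06, 5.22 and 5.55 in B41HET and 5.63, 5.39 and 5.69 in B41KO. B41KO replicate 2 lay below the highest B41HET sample, so the groups overlapped. The change of 0.30 (95% interval -0.09 to 0.68, limma adjusted p = 0.328) was the largest increase by brightest probe among the members and was not called. *Stab2*, known from the sinusoidal endothelium of liver and spleen, read 4.89, 4.99 and 5.24 in B41HET and 5.08, 4.97 and 4.60 in B41KO on its brighter probe, and 4.60, 4.97 and 5.12 against 4.79, 5.01 and 4.45 on the other. Both probes overlapped between the genotypes, with B41KO replicate 3 the lowest sample on each. The changes were -0.16 (95% interval -0.55 to 0.24) and -0.15 (95% interval -0.64 to 0.34), with limma adjusted p of 0.628 and 0.723, and they differed by 0.01. The change of the brighter probe was 0.04 with the slide row as a block, and that of the other was 0.005 without B41KO replicate 3.

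Other scavenger receptors were read beside the 9 members by the brightest probe of each gene. Some belong to the same classes as the members, among them *Scarb2*, *Stab1* and *Scarf2*, and the rest to other classes and families. Of 18 such genes, 0 were called higher and 2 lower, and the median change was 0.10. *Cd44*, a hyaluronan receptor, read 7.56, 7.58 and 7.60 in B41HET and 6.47, 6.19 and 6.31 in B41KO, a change of -1.26 (limma adjusted p = 0.00406). *Cd163*, the receptor for complexes of haptoglobin and haemoglobin, read 6.24, 6.26 and 6.28 in B41HET and 5.11, 5.29 and 5.31 in B41KO, a change of -1.03 (limma adjusted p = 0.00501). In both genes the B41KO samples lay well below all B41HET samples. The brightest genes without a call were *Lrp1* (0.10), *Cxcl16* (0.08, and -0.26 on its other probe) and *Scarb2* (0.10), the receptor that sorts beta-glucocerebrosidase to lysosomes. Another 2 genes, chosen after their values were seen, passed the adjusted p but not the fold, *Stab1*, the relative of *Stab2*, at -0.50 (adjusted p = 0.0282) and *Scarf2*, the relative of *Scarf1*, at 0.43 (adjusted p = 0.0376).

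Ligands that scavenger receptors bind were called lower in 4 of 13 genes and higher in 0, with a median change of -0.25. *Apoe*, the main apolipoprotein of the brain, changed by -0.69 (limma adjusted p = 0.0102), from 14.85, 14.76 and 14.68 to 14.04, 14.07 and 14.11. *App*, the precursor of amyloid-beta, changed by -0.91 (limma adjusted p = 0.00559) on its brightest probe, while its 2 other probes gave 0.66 and 0.07 and were not called. *S100a8* and *S100a9*, which form calprotectin, changed by -2.22 and -2.52 (limma adjusted p = 0.00176 and 0.000911). *C1qa* (-0.16), *C1qb* (-0.03) and *C1qc* (0.15), the chains of the first complement component, were not called. *Calr*, named after its values were seen, passed the adjusted p (0.0354) but not the fold, with a change of -0.45. The direction of *Apoe*, *S100a8* and *S100a9* was downward in every sample, without overlap between the genotypes. With the slide row in the model 2 of the 13 ligands were called, both lower.

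Of 15 genes for partners and proximal signalling, 2 were called lower and 0 higher, with a median change of 0.02. They are the Src family kinases *Src* and *Fyn*, while *Lyn*, a kinase of the same family and list that was named after its values were seen, had a change of -0.04 (limma adjusted p = 0.785). *Src* changed by -0.70 (limma adjusted p = 0.0206) on the probe that stood for it, while its dimmer probe gave 0.08 and was not called, and *Fyn* changed by -0.56 (limma adjusted p = 0.0295). Neither was called when the slide row entered the model, and 1 of the list was called with normexp correction and 1 with the 75th percentile alignment. *Cd9* (0.39, adjusted p = 0.0392) and *Itgb2* (-0.39, adjusted p = 0.0405) passed the adjusted p but not the fold, and *Cd81* (0.28) passed neither. Genes for the handling of lipoproteins and cholesterol, the step after uptake, were called in 0 of 15, with a median change of -0.04 that became 0.01 with the slide row as a block. *Npc1* (-0.04), *Npc2* (0.22) and *Abcg1* (0.14) were the brightest of them. Among the 4 lysosomal LAMP genes related to *Cd68*, 0 were called and the median was 0.10, which was -0.01 with normexp correction. *Lamp1* had a change of 0.41 (adjusted p = 0.0289), short of the fold threshold, while its other probe, also above background on all arrays, gave -0.09 (adjusted p = 0.545). *Lamp2* (-0.16, and 0.15 on its other probe) and *Lamp3* (-0.08) did not pass the adjusted p.

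**Figure D4:**
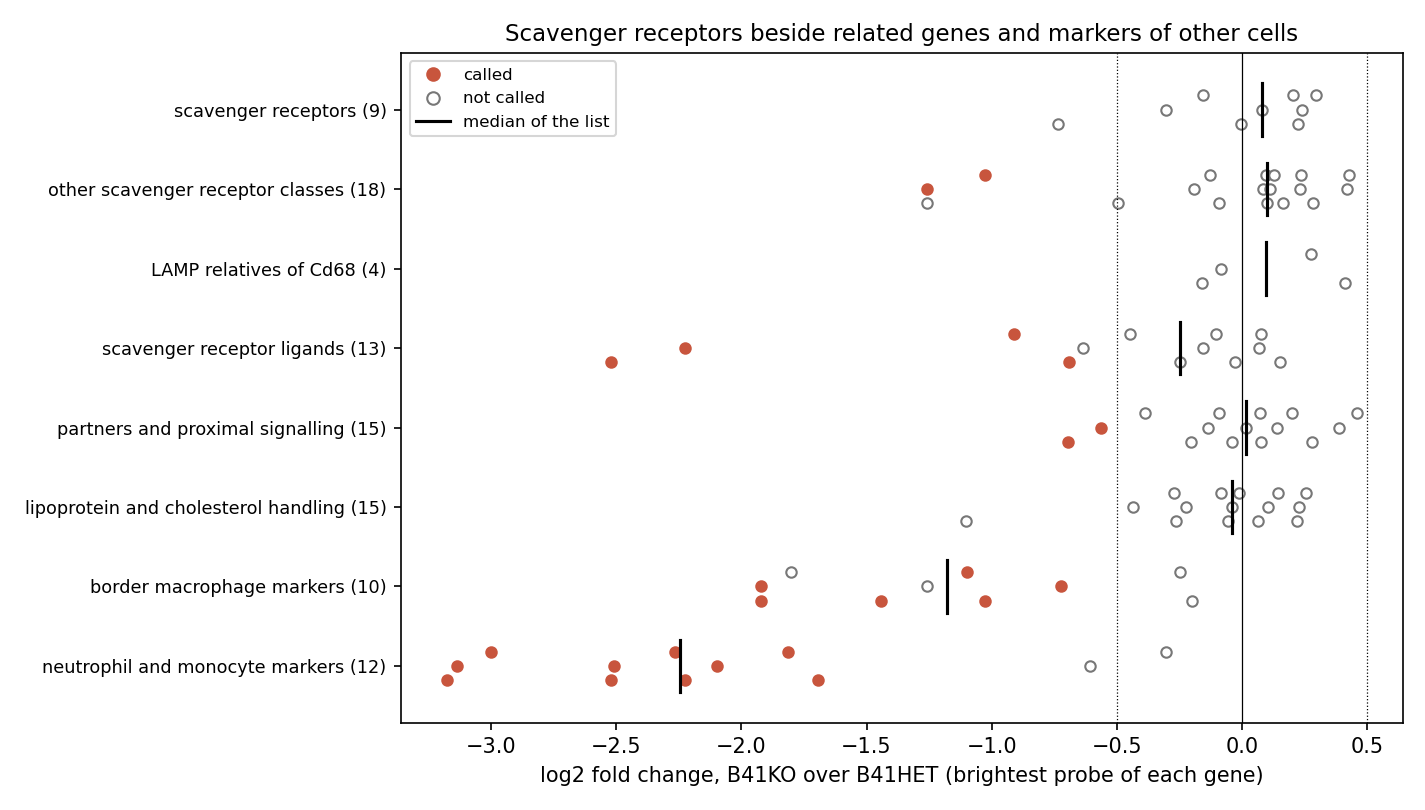
Log2 fold change of B41KO over B41HET for the brightest probe of each gene, by gene list with the number of genes in brackets, 1 point a gene, filled points for calls and a bar for the median of each list. The 9 scavenger receptors spread around 0 without a call, and calls of the lists of related genes are all lower in B41KO. The list labelled as other scavenger receptor classes also holds genes of the members' own classes. Medians of the LAMP and of the lipoprotein lists lie near 0 and change sign with normexp correction and a slide row block, respectively.

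Markers of other cells moved with genotype as well. The sorted cells were measured as a whole, so fewer cells of a type and less RNA per cell cannot be told apart. Of 12 neutrophil and monocyte markers, which include *S100a8* and *S100a9*, 10 were called lower and 0 higher, and their summed linear signal lay between 31852 and 35791 in B41HET and between 5963 and 6503 in B41KO. Of 10 border macrophage markers, which include *Cd163*, 6 were called lower and 0 higher, and their summed signal was 552 to 589 in B41HET and 290 to 301 in B41KO. The 6 calls became 2 with the slide row in the model and 3 with normexp correction, where the median of the list went from -1.18 to -0.33. The offset of 50 in normexp shrinks the log2 changes of dim probes, so that fall in size is not read as a smaller difference. *Folr2* (-0.25, not called), *Cbr2* (-1.44, called) and *Cd163* were the brightest of them.

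*Cd36* is also known from monocytes, macrophages and the endothelium of capillaries. Of 12 endothelial markers 2 were called lower, *Ly6c1* (-1.79) and *Pecam1* (-1.68), and the summed signal was 1384 to 1456 in B41HET and 636 to 715 in B41KO, while the endothelial genes *Cdh5*, *Flt1*, *Tek* and *Tie1* were not above background on any array. *Ly6c1* and *Pecam1* carried the difference in the sum, since the other 10 markers summed to 309 to 362 in B41HET and 334 to 394 in B41KO, and *Vwf*, the third brightest, had a change of 0.33. The median of the list was 0.02, which became 0.13 with the 75th percentile alignment and -0.17 with the slide row in the model. Summed microglia markers were 185789 to 201024 in B41HET and 180479 to 189313 in B41KO, with 1 of 12 called, *Fcrls* (-0.76). Dendritic cell markers (1 of 8 called, *Cd209a* at -1.74, with -0.12 and no call on its other probe) and B cell markers (1 of 8 called, *Cd79a* at -0.99) had summed signals that overlapped between the genotypes, 18583 to 21074 against 19216 to 20287 and 2281 to 2631 against 2305 to 2402. The dendritic sum is almost wholly *Siglech*, which is also a microglia marker, and the other 7 genes summed to 297 to 334 in B41HET and 210 to 242 in B41KO. The part of these other cells in the values of *Cd36*, *Cd44*, *Cd163*, *S100a8* and *S100a9* was not tested.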

How the data were processed

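RNA of microglia from 3 B41HET and 3 B41KO samples was hybridised to single-colour SurePrint G3 Mouse arrays. The authors deposited intensities per spot, made with Feature Extraction 11.5.1.1, background-subtracted array by array without normalization between them. The log2 values of their processed table shared their quantiles between columns, as the quantile normalization named in the methods gives, and ranked probes as the arrays did (column median 5.10). The table itself does not state its scale, which was read as log2 from the values. Control spots were left out, and log2 intensities were quantile normalized over the 6 arrays. Outlier spots (95 to 136 per array) were then dropped, and spots of a probe were averaged. limma 3.58.1 in R 4.3.3 (data.table, version 1.17.8) was fitted with genotype as the only term to probes with at least 2 values per genotype, without a filter on dim probes. Quantile normalization, limma and the thresholds follow the methods. The model was checked on simulated data. Accessions were matched to RefSeq genes on GRCm38.p6, which named 59.7% of probes. The array was designed on another build, so no probe coordinates are given. Plots used matplotlib 3.10.9 (Python 3.11.15).

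The members and gene lists were chosen with earlier results of these data known. Named were all members with every probe. From each other list came the called genes, at most the 5 of largest change, and of the uncalled at most the 3 of highest mean signal. From each marker list at most 3 came, by mean signal, and *Fcrls*, *Cd209a*, *Cd79a* and the endothelial genes below background were named, and the sums without *Ly6c1* and *Pecam1* or *Siglech* taken, after their values were seen. Alternatives were the 75th percentile shift, the authors' processed log2 values, normexp (offset 50) on median intensities, a dim probe filter, outlier spots kept, trend and robust variance, blocks for replicate number and slide row, row 1 alone, each sample left out, no fold threshold, and other rules for the probe of a gene. Same-numbered samples did not deviate together (correlations of 0.03, 0.01 and 0.05), so numbers were not taken to pair samples.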

Additional observations from a re-analysis of the deposited data

How the results depend on the processing

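Over 14 member probes and 15 alternatives, 207 values were recomputed, and 186 kept their direction and their side of the threshold. The second *Msr1* probe and the 2 *Olr1* probes gave no value with the dim probe filter. Of the others, 9 lost a call, 1 gained one and 11 changed sign. Every member change given was as reported with the replicate block, the dim probe filter, outlier spots kept, and trend and robust variance. Directions could not turn in those settings, and the slide row block and row 1 alone gave the same changes as each other. The count of kept values is therefore not a measure of robustness. The number of member probes called was 1 as reported, 2 with the dim probe filter, which added *Cd36*, and 0 with a replicate block, with a slide row block, in row 1 alone and with any 1 sample left out. The number of member genes called was 0 as reported and 1 with the dim probe filter (*Cd36* again), with the mean over probes (*Scarb1*) or with the probe of lowest p (*Scarb1*). *Cd36* met the dim probe filter only through the 3 arrays of the genotype where it is high, so its call there supports nothing. The dimmer *Scarb1* probe had limma adjusted p of 0.0828 with the replicate block, 0.134 with the slide row as a block and 0.208 in row 1 alone.

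All changes of sign were in values that were not called. The first *Olr1* probe gave 0.28 with the 75th percentile shift, 0.025 with normexp, and -0.058 to 0.020 with 1 sample left out, above 0 without B41HET replicate 2, B41KO replicate 1 or B41KO replicate 3. The second gave 0.25 under the percentile shift. The brighter *Msr1* probe gave 0.053, and the brighter *Stab2* probe 0.036, both with the slide row as a block and in row 1 alone, and the other *Stab2* probe gave -0.29 to 0.0051 with 1 sample left out, above 0 without B41KO replicate 3. For these and the lost calls the cause was not tested.

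Of all probes 2883 were called as reported, 1501 with normexp, 42 with the replicate block, 448 with the slide row as a block, 0 in row 1 alone (limma, 9287 at an unadjusted p under 0.05), where 1 B41KO array is assumed to vary as B41HET does, and 796 to 1524 with 1 sample left out. Calls lower in B41KO were 66.3% of calls as reported, 53.9% under the percentile shift and 95.2% with the replicate block. Blocking by replicate moved the calls of neutrophil and monocyte markers from 10 to 6 and of border macrophage markers from 6 to 0. Calls of ligands went from 4 to 1, and of the other scavenger receptors, the partners and the endothelial markers from 2 to 0. Those of microglia, dendritic cell and B cell markers went from 1 to 0. A slide row block moved border macrophage markers from 6 to 2, ligands from 4 to 2, partners from 2 to 0, and microglia, dendritic cell and B cell markers from 1 to 0, and row 1 alone gave 0 in every list. With normexp border macrophage markers went from 6 to 3, partners from 2 to 1 and B cell markers from 1 to 0. Its offset shrinks the log2 changes of dim probes, so lost calls of such probes are not read as lost differences. Under the percentile shift partners went from 2 to 1, and on the authors' values *Lamp1* was called.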
